A study of Rattus norvegicus with 98 samples.

Results

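Messenger RNA of 43 listed ribosome biogenesis genes was followed in nasal epithelial cells of 98 rats, 1 Affymetrix Rat230_2 array per rat, and 42 of the 43 genes could be measured out of 14217 genes with a probe set of their own. Where a gene had several probe sets, the brightest by its average across all 98 rats stood for it. Npm1, which encodes the nucleolar chaperone nucleophosmin, is given no values because each of its probe sets also names a pseudogene. Male F344/NCrl rats of 8 weeks breathed air or formaldehyde at 0.7, 2 or 6 ppm with the whole body, 6 h a day on 5 days a week, with labelled durations of 6 h, 24 h, 5 d, 8 d or 19 d (the first array set, 82 rats). A later array set of 16 rats, all collected at 6 h, held rats that breathed air or 15 ppm and rats that received distilled water or 400 mM formaldehyde into each nostril. Of the 24 groups, air at 8 d and 2 ppm at 5 d had 5 rats and the others had 4. Values are log2 signals as deposited, so a difference of 1 is a doubling. A change is given with the standard error of a limma model over all 98 arrays, and a gene is called when its p, adjusted by Benjamini-Hochberg over 31042 probe sets, is under 0.05.

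Ribosomes are assembled in the nucleolus. RNA polymerase I transcribes the long precursor of the ribosomal RNAs, small nucleolar ribonucleoproteins (snoRNPs) guide its chemical modification and cleavage, and a large set of assembly factors builds the small and the large subunit around the pieces before export to the cytoplasm. The genes for these factors are known to be transcribed together when cells are driven to grow, and MYC is a well known activator of many of them. In a lining epithelium such as that of the nose, growth of this kind accompanies repair and renewal.

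The cells were released by proteases from a dissected section of the nose, per the labels, and were described as mostly transitional epithelium with some respiratory epithelium. Markers of basal cells and of ciliated cells were present in every array: Krt5 lay between 11.07 and 12.87 and Foxj1 between 8.51 and 10.41. Olfactory epithelium had been discarded at dissection, yet Omp, the marker of mature olfactory neurons, lay between 8.64 and 13.34. These are samples of mixed cells, so fewer cells of a type and less RNA per cell cannot be told apart. Array medians ran from 5.93 to 6.07, and each array correlated with the mean of its group at 0.987 or more across probe sets.

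Formaldehyde at 15 ppm raised most of the assembly factors within 6 h. Of the 42 genes, 31 rose and none fell, against 4.32% of all probe sets that rose and 4.17% that fell. The genes were listed with earlier results of these data known, so such shares are given for scale, here and below, and not as a test. The genes were also brighter, with a median mean signal of 8.29 against 7.35 over all genes. The changes ran from -0.07 to 1.52 with a median of 0.49 (1.41-fold), beside a median of -0.02 over all genes. In 34 genes every rat at 15 ppm lay above every air rat, which held for 8.02% of all probe sets. Of the 31 genes, 15 rose at least 1.5-fold, against 1.50% of probe sets. The largest changes were in Gnl3, which encodes nucleostemin, a nucleolar GTPase of proliferating cells, and in Nop56, a core protein of the box C/D snoRNPs.

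**Figure D1:**
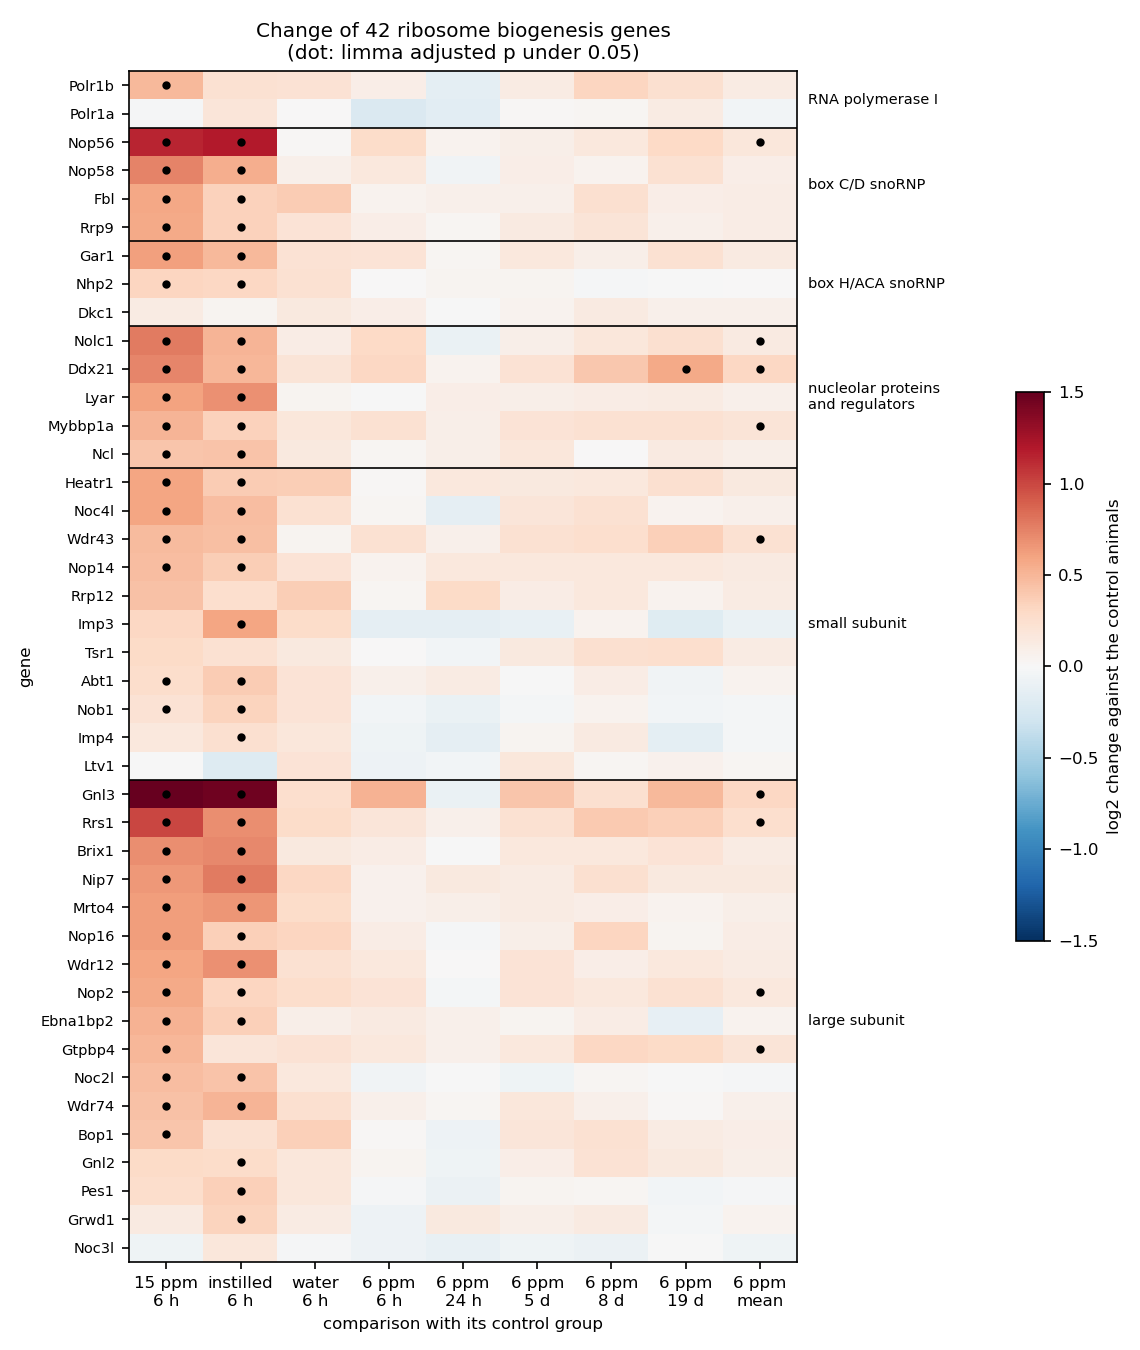
Log2 change of each of the 42 genes (rows, grouped by role) against its control animals in 9 comparisons (columns: 15 ppm against air, instilled formaldehyde against water, water against air, and 6 ppm against air at each of 5 times and averaged over them). Red is higher and blue lower than the control, and a dot marks an adjusted p under 0.05 in limma: dots fill the first columns (31 and 33 genes), are absent for water, and at 6 ppm stand at Ddx21 at 19 d and at 9 genes in the average.

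All 4 box C/D snoRNP proteins rose at 15 ppm (median 0.66). These complexes guide the methylation of ribose in ribosomal RNA and early cleavage of its precursor. Nop56 read 9.27, 9.33, 9.37 and 9.40 in the 4 air rats and 10.38, 10.47, 10.50 and 10.57 in the 4 rats at 15 ppm. The groups were far from overlapping, and the change was 1.14 ± 0.08 (adjusted p = 4.83e-19). Its partner Nop58 read 9.44, 9.46, 9.50 and 9.62 in air and 10.07, 10.14, 10.33 and 10.48 at 15 ppm, a change of 0.75 ± 0.10 (adjusted p = 5.93e-08). Rrp9, a protein specific to the snoRNP that directs early precursor cleavage, read 7.13, 7.32, 7.33 and 7.42 in air and 7.75, 7.77, 7.88 and 8.09 at 15 ppm, a change of 0.57 ± 0.08 (adjusted p = 2.11e-07). For both genes every exposed rat was above every air rat. Fbl, the methyltransferase fibrillarin, read 9.68, 9.80, 9.83 and 9.91 in air and 10.28, 10.36, 10.40 and 10.51 at 15 ppm and rose by 0.58 (adjusted p = 5.29e-04).

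Of the 3 box H/ACA proteins, whose complexes turn uridine of ribosomal RNA into pseudouridine, 2 rose. Gar1 changed by 0.61 ± 0.12 (adjusted p = 2.68e-04) and Nhp2 by 0.32 ± 0.10 (adjusted p = 0.0322). Dkc1, the pseudouridine synthase dyskerin, did not pass: it read 8.23, 8.25, 8.29 and 8.42 in air and 8.30, 8.39, 8.48 and 8.52 at 15 ppm, a change of 0.12 ± 0.10 (adjusted p = 0.563), and the groups overlapped. RNA polymerase I was measured through the 2 subunits that form its catalytic core. Polr1b read 6.65, 6.76, 6.77 and 6.78 in air and 7.09, 7.19, 7.21 and 7.43 at 15 ppm and rose by 0.49 (adjusted p = 0.0032), while Polr1a changed by -0.01 ± 0.13 (adjusted p = 0.973).

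All 5 nucleolar proteins and regulators rose at 15 ppm, with changes from 0.42 to 0.77. Nolc1, a chaperone that binds snoRNPs in the nucleolus, read 7.65, 7.68, 7.68 and 7.76 in air and 8.33, 8.38, 8.40 and 8.76 at 15 ppm, a change of 0.77 ± 0.08 (adjusted p = 4.50e-12). Ddx21, a nucleolar RNA helicase, read 8.73, 8.89, 8.93 and 8.96 in air and 9.38, 9.48, 9.58 and 9.98 at 15 ppm, a change of 0.73 ± 0.13 (adjusted p = 4.95e-05). The lowest exposed rat was above the highest air rat in both genes, and 1 exposed rat, animal 342, was the highest in each. Ncl, the abundant nucleolar protein nucleolin, read 10.88, 10.93, 11.04 and 11.06 in air and 11.30, 11.32, 11.37 and 11.59 at 15 ppm and rose by 0.42 (adjusted p = 0.0085). Lyar, a nucleolar protein of growing cells, changed by 0.61 ± 0.11, and Mybbp1a, a nucleolar protein that binds MYB, by 0.51 ± 0.08, both without overlap between the groups.

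The large subunit factors rose in 13 of 17 cases at 15 ppm (median 0.52, from -0.07 to 1.52). Gnl3 read 8.31, 8.35, 8.48 and 8.56 in air and 9.76, 9.81, 9.96 and 10.26 at 15 ppm, a change of 1.52 ± 0.14 (2.87-fold, adjusted p = 3.93e-14). Rrs1, which brings the 5S particle into the early large subunit, read 7.55, 7.71, 7.81 and 7.93 in air and 8.40, 8.78, 8.81 and 8.99 at 15 ppm, a change of 1.00 ± 0.14 (adjusted p = 3.24e-07). These were the 2 largest changes among the large subunit factors, and neither had overlapping groups. Brix1, a factor of the early large subunit, read 8.51, 8.58, 8.69 and 8.74 in air and 9.11, 9.35, 9.38 and 9.46 at 15 ppm, a change of 0.69 ± 0.10 (adjusted p = 1.64e-07). Nop2, a methyltransferase of the large ribosomal RNA, read 8.10, 8.14, 8.15 and 8.24 in air and 8.53, 8.62, 8.74 and 9.03 at 15 ppm, a change of 0.57 ± 0.09 (adjusted p = 9.32e-07). Wdr12, Bop1 and Pes1 form 1 complex that is needed for processing of the large subunit RNA. Wdr12 rose by 0.59 and Bop1 by 0.42, and Pes1 changed by 0.27 ± 0.10 and did not pass (adjusted p = 0.0889). Pes1 read 7.96, 8.04, 8.10 and 8.14 in air and 8.19, 8.27, 8.27 and 8.58 at 15 ppm, so its groups stood apart by a narrow margin. Nip7, Mrto4, Nop16, Ebna1bp2, Gtpbp4, Noc2l and Wdr74 also rose, by 0.44 to 0.66. Gnl2 (0.28 ± 0.10, adjusted p = 0.0544) and Grwd1 (0.13 ± 0.10) did not pass. Noc3l did not pass either (-0.07 ± 0.08), and its probe set was dim, with a mean of 3.53, at the 5.9 percentile of all probe sets.

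Of the small subunit factors 6 of 11 rose (median 0.31, from -0.0038 to 0.59), and differences between the roles were not tested. Heatr1, a factor that couples transcription and processing of the precursor, changed by 0.59 ± 0.14, Noc4l by 0.59 ± 0.10, Wdr43 by 0.48 ± 0.11 and Nop14 by 0.47 ± 0.11. Abt1 and Nob1, the endonuclease that makes the last cleavage of the small subunit RNA, rose by 0.27 and 0.22. Abt1 had a mean of 8.47 at 15 ppm, 8.20 in these air rats and 8.46 in the 6 h air rats of the first set. For Nob1 these means were 8.71, 8.48 and 8.62. Imp3, Imp4, Rrp12, Tsr1 and Ltv1 did not pass, with changes of 0.31, 0.16, 0.44, 0.28 and -0.0038. For Imp4 and Rrp12 the probe sets disagreed: a second probe set of Imp4 rose by 0.52 (adjusted p = 3.40e-05) and a second one of Rrp12 by 0.50 (adjusted p = 0.0022). Over the 13 further probe sets of 10 genes, 10 rose and all 13 were positive at 15 ppm.

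**Figure D2:**
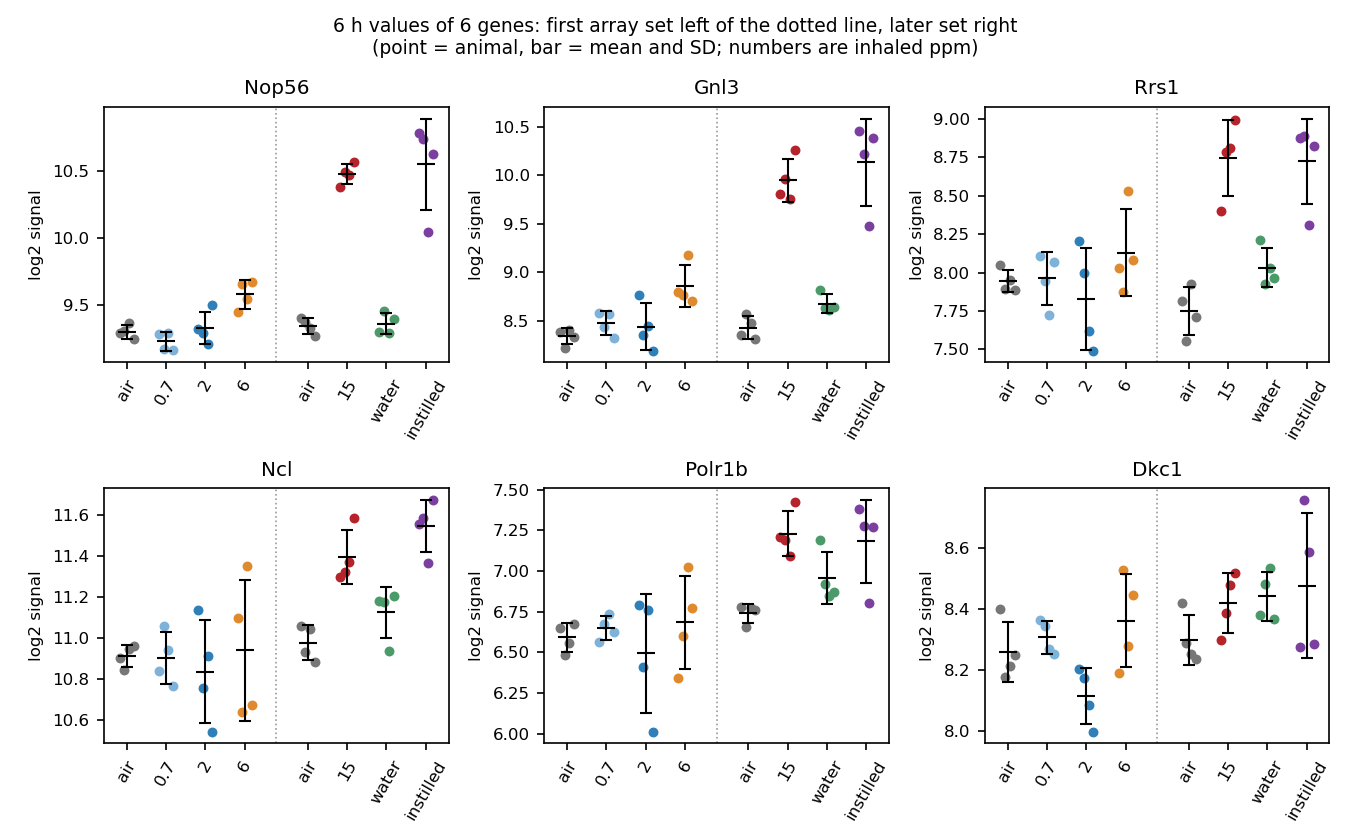
Log2 signal of Nop56, Gnl3, Rrs1, Ncl, Polr1b and Dkc1 in every rat collected at 6 h (points), with group mean and SD (bars); the first array set is left of the dotted line and the later set right of it, and numbers under the axis are inhaled ppm. Nop56 and Gnl3 stand apart at 15 ppm and after instillation, while the Dkc1 groups overlap.

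Instilled formaldehyde also raised most of the factors. Against the rats given water, 33 of the 42 genes rose and none fell, against 9.83% of probe sets that rose and 12.4% that fell. The median change was 0.36 (1.29-fold), from -0.19 to 1.46, beside a median of -0.0024 over all genes. Every instilled rat lay above every water rat in 25 genes, against 8.94% of probe sets, and 9 of the 33 rose at least 1.5-fold, against 3.50%. The genes that rose in both comparisons numbered 28, of 31 at 15 ppm and of 33 after instillation. The share of all probe sets that rose in both was not computed, so this overlap is not read as particular to the 42 genes. Bop1, Gtpbp4 and Polr1b were called at 15 ppm only, and Gnl2, Grwd1, Imp3, Imp4 and Pes1 after instillation only. Dkc1, Ltv1, Noc3l, Polr1a, Rrp12 and Tsr1 were called in neither. A call in 1 comparison only does not show a difference between routes. Gnl2 changed by 0.28 at 15 ppm and 0.27 after instillation, with limma adjusted p of 0.0544 and 0.0329. A second probe set of Gtpbp4 did rise after instillation (0.29, adjusted p = 0.0113), as did both further probe sets of Rrp12 (0.34 and 0.48). Of the 13 further probe sets, 10 rose and all 13 were positive.

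Nop56 read 9.29, 9.29, 9.39 and 9.45 in the 4 water rats and 10.04, 10.63, 10.74 and 10.78 in the 4 instilled rats, a change of 1.19 ± 0.08 (2.29-fold, adjusted p = 7.80e-21). Gnl3 read 8.61, 8.63, 8.64 and 8.82 with water and 9.47, 10.22, 10.38 and 10.46 with formaldehyde, a change of 1.46 ± 0.14 (2.75-fold, adjusted p = 7.31e-14). In both genes 1 instilled rat, animal 372, was well below the other 3 and still above every water rat. Among large subunit factors Brix1 read 8.62, 8.75, 8.82 and 8.91 with water and 9.10, 9.58, 9.58 and 9.74 with formaldehyde, a change of 0.72 ± 0.10 (adjusted p = 1.48e-08). Nip7, which helps to process the large subunit RNA, read 8.25, 8.37, 8.41 and 8.46 with water and 8.63, 9.13, 9.34 and 9.50 with formaldehyde, a change of 0.78 ± 0.12 (adjusted p = 5.22e-07). Both genes had their lowest instilled value in animal 372. Wdr12 read 7.63, 7.69, 7.74 and 7.84 with water and 8.12, 8.39, 8.45 and 8.70 with formaldehyde, a change of 0.69 ± 0.10 (adjusted p = 2.18e-07). Wdr74, which works in nucleolar release of the large subunit, read 8.47, 8.59, 8.62 and 8.70 with water and 8.89, 9.08, 9.13 and 9.29 with formaldehyde, a change of 0.50 ± 0.08 (adjusted p = 8.43e-07). The large subunit factors as a whole rose in 14 of 17 cases (median 0.36).

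The 5 nucleolar proteins and regulators again all rose, by 0.35 to 0.69. Nolc1 read 7.73, 7.81, 7.81 and 7.85 with water and 8.16, 8.21, 8.43 and 8.43 with formaldehyde, a change of 0.51 ± 0.08 (adjusted p = 6.27e-07). Lyar read 8.16, 8.17, 8.23 and 8.34 with water and 8.68, 8.82, 9.06 and 9.10 with formaldehyde, a change of 0.69 ± 0.11 (adjusted p = 9.40e-07). Neither gene had overlapping groups. Ncl read 10.94, 11.17, 11.18 and 11.20 with water and 11.37, 11.56, 11.59 and 11.67 with formaldehyde and rose by 0.42 (adjusted p = 0.0029). Ddx21 read 8.92, 9.03, 9.11 and 9.21 with water and 9.25, 9.50, 9.68 and 9.82 with formaldehyde and rose by 0.50 (adjusted p = 0.0032). The box C/D proteins rose in 4 of 4 cases, Fbl by 0.35 from 10.04, 10.15, 10.18 and 10.40 to 10.44, 10.47, 10.56 and 10.70, and the box H/ACA proteins in 2 of 3. Dkc1 was again the exception, at 8.37, 8.38, 8.48 and 8.54 with water and 8.28, 8.28, 8.59 and 8.76 with formaldehyde (0.04 ± 0.10, adjusted p = 0.851).

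The small subunit factors rose in 8 of 11 cases after instillation (median 0.36), now with Imp3 (0.59 ± 0.12) and Imp4 (0.24 ± 0.07), which help the cleavage snoRNP to bind the precursor. Ltv1, a factor of late small subunit assembly, had the lowest change of the 42 genes (-0.19 ± 0.10, adjusted p = 0.161) and did not pass. Pes1 read 8.14, 8.18, 8.25 and 8.33 with water and 8.48, 8.56, 8.58 and 8.70 with formaldehyde and rose by 0.35 (adjusted p = 0.0061). Neither RNA polymerase I subunit passed: Polr1b read 6.84, 6.87, 6.92 and 7.19 with water and 6.81, 7.27, 7.27 and 7.38 with formaldehyde, a change of 0.23 ± 0.12 (adjusted p = 0.175), and Polr1a changed by 0.18 ± 0.13.

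The rats given water alone were themselves higher than the air rats in 41 of the 42 genes, by a median of 0.20 beside 0.02 over all genes, and limma called none of them at an adjusted p under 0.05 (0.0129% of probe sets were called). At an unadjusted p under 0.05 limma gave 19 of the 42 genes (45.2%), all higher with water, against 10.4% of all probe sets, and with array weights 5 were called, against 1.13%. Water rats all lay above air rats in 18 genes, against 5.30% of probe sets. The genes with the smallest p were Nob1 (0.20 ± 0.06), Nop16 (0.33 ± 0.10) and Fbl (0.39 ± 0.12), with adjusted p of 0.223 to 0.242. Nop56 differed little, with 9.36 ± 0.08 (SD, n = 4) with water and 9.34 ± 0.06 in air. Cell markers differed as well, though none was called. All 8 olfactory markers were lower with water (median -1.30). All 4 erythroid (0.75), all 6 neutrophil (0.32) and all 11 proliferation markers (0.14) were higher. The part of the cell markers in the water difference was not tested. Set against the air rats, instilled formaldehyde gave a larger median of 0.59 and 38 genes that rose, the 33 above among them, against 14.4% of probe sets. How many of all probe sets rose against both controls was not computed.

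The effect of 15 ppm and the effect of instillation could be compared directly, each against its own control. None of the 42 genes differed at an adjusted p under 0.05 in limma (0.879% of probe sets did), and 4 did at an unadjusted p under 0.05 (9.52%, against 9.76% of all probe sets). Nolc1 had the smallest p, with an effect larger by 0.27 at 15 ppm (95% interval 0.04 to 0.49, adjusted p = 0.358). It was followed by Noc3l, at -0.24 (-0.47 to -0.01), and Gtpbp4, at 0.32 (0.01 to 0.63). The intervals reached a median of 0.29 to either side, so differences of that size could be missed, and 38 of the 42 included 0. Doses by the 2 routes are in different units and were not matched.

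**Figure D3:**
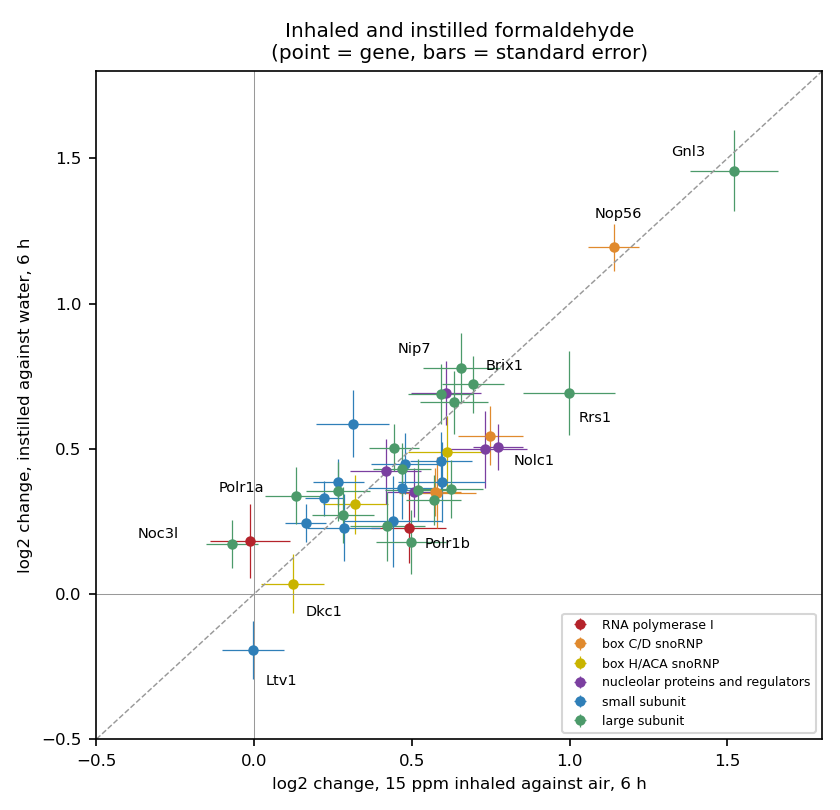
Log2 change of each of the 42 genes at 15 ppm against air (horizontal axis) and after instillation against water (vertical axis) at 6 h, coloured by role, with standard errors as bars and a dashed line of equal change. Gnl3 and Nop56 lie far out along the line, and Dkc1, Ltv1, Noc3l and Polr1a lie near 0 at 15 ppm.

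Other measures moved with the same groups. Neutrophil markers rose in 4 of 6 cases at 15 ppm and 5 of 6 after instillation, and their mean signal ran from 5.84 to 6.18 in air, from 6.97 to 7.30 at 15 ppm, from 6.22 to 6.74 with water and from 8.02 to 9.27 in instilled rats. Of 7 ciliated cell markers none was called at 15 ppm and 3 fell after instillation, where their mean ran from 8.94 to 9.12 against 9.58 to 9.77 with water. The mean of 8 olfactory markers ran from 10.36 to 11.20 in air, 9.86 to 11.35 at 15 ppm, 8.55 to 10.25 with water and 8.48 to 9.41 in instilled rats, with 1 marker called in each comparison. Among 11 proliferation markers only Pcna, the sliding clamp of DNA polymerase, was called: it rose by 0.79 at 15 ppm and 1.01 after instillation. RNA integrity numbers were 7.3 to 7.8 in air, 7.7 to 8.2 at 15 ppm, 7.5 to 8.3 with water and 8.3 to 8.4 in instilled rats. With that number in the model, which kept the 85 arrays that have one, 29 genes rose at 15 ppm (median 0.44), against 3.99% of probe sets, and 31 after instillation (median 0.34), against 9.95%. Other markers called after instillation were Itgax (1.57 ± 0.27) and Cd68 (0.65 ± 0.20) of 11 macrophage and dendritic markers, Il7r (0.63 ± 0.22) and Cd3e (0.74 ± 0.28) of 10 lymphocyte markers, Reg3g (2.37 ± 0.52) and Tff3 (0.65 ± 0.17) of 10 secretory markers, and Col1a1 (-0.81 ± 0.26) of 9 markers of stroma and vessels. At 15 ppm the erythroid gene Ahsp rose by 1.31 ± 0.41, 1 of 4. The part of the cell markers in these results was not tested.

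The air rats of the later set differed from those of the first set in both directions. At 6 h the differences ran from -0.38 (Rrp12) to 0.28 (Tsr1) with a median of -0.03, and 1 of 42 genes was called, against 4.70% of probe sets: Abt1, with a difference of -0.26 (adjusted p = 0.0398). With array weights 6 were called, against 16.2%. For Abt1, Nob1, Nhp2, Rrp12 and Imp3 the air rats of the later set had the lowest mean of the 24 groups, so their changes at 15 ppm depend on that control. Set against the air rats of the first array set, 28 genes rose at 15 ppm, against 8.85% of probe sets. Of these, 26 were among the 31, and the share of all probe sets that rose against both controls was not computed. The median change was then 0.48, with 1.18 for Nop56 and 1.61 for Gnl3.

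At 6 ppm fewer of the genes passed. Over the 5 times together, 9 of 42 rose and none fell, against 2.82% of probe sets that rose and 3.54% that fell, with a median change of 0.10 beside -0.01 over all genes. Ddx21 changed by 0.31 ± 0.06 (1.24-fold, adjusted p = 3.50e-04), Gnl3 by 0.31 ± 0.06, Mybbp1a by 0.19 ± 0.04, Wdr43 by 0.23 ± 0.05, Nop56 by 0.17 ± 0.04 and Gtpbp4 by 0.20 ± 0.05. Nop2, Nolc1 and Rrs1 were the other 3, and all 9 but Gtpbp4 were among the 28 that rose by both routes in the later set. The share of all probe sets with such an overlap was not computed. Without the 19 d rats 5 genes were called, all of them among the 9, against 1.32% of probe sets. With the RNA integrity number in the model (85 arrays) 8 rose, against 1.25%. At 5 d the array names of the air rats take another form on the labels than those of the rats at 6 ppm. What the form stands for is not given, so dose and form of name cannot be told apart at 5 d, which is part of this average.

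Cell markers and RNA quality also differed between 6 ppm and air at single times. At 8 d all 8 olfactory markers (median -0.75) and all 10 basal and squamous markers (median -0.52) were lower at 6 ppm. At 19 d all 11 macrophage and dendritic markers (median -0.35) and all 10 lymphocyte markers (median -0.36) were lower, while all 10 basal and squamous markers (median 0.33) and 10 of 11 proliferation markers (median 0.27) were higher. None of these markers was called at those times. RNA integrity numbers at 6 ppm were 7.7 to 7.8 at 6 h, against 7.8 to 8.3 in air, and 7.7 to 7.8 at 8 d, against 8.2 to 8.8 in air. The rat at 6 ppm with the highest median over the 42 genes had no such number at 6 h, 5 d and 8 d. The part of the cell markers in the 6 ppm results was not tested.

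At single times fewer genes passed. At 19 d only Ddx21 was called, and none fell, against 0.0902% of probe sets that rose and 0.322% that fell. It read 8.38, 8.52, 8.58 and 8.63 in the 4 air rats and 8.88, 9.15, 9.16 and 9.18 in the 4 rats at 6 ppm, a change of 0.57 ± 0.13 (1.48-fold, adjusted p = 0.0272). The groups did not overlap, and 1 rat at 6 ppm lay below the other 3. This call was lost when any 1 rat of the 2 groups other than animal 308 was left out. Every rat at 6 ppm lay above every air rat in 9 of the 42 genes at 19 d, against 2.15% of probe sets. Nop56 read 9.16, 9.32, 9.37 and 9.41 in air and 9.54, 9.61, 9.62 and 9.70 at 6 ppm (0.30 ± 0.08, adjusted p = 0.0648), and Gnl3 read 8.40, 8.42, 8.58 and 8.75 in air and 8.87, 8.93, 9.05 and 9.25 at 6 ppm (0.49 ± 0.14, adjusted p = 0.083).

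At 6 h, 24 h, 5 d and 8 d limma called none of the 42 genes at 6 ppm, against 0.245%, 0.00322%, 0.119% and 0.0290% of probe sets. At an unadjusted p under 0.05 it gave 7, 1, 5 and 17 genes (16.7%, 2.38%, 11.9% and 40.5% of the 42), against 12.6%, 7.57%, 7.24% and 6.14% of all probe sets. These genes were higher at 6 ppm except Imp4 at 24 h. Cyclic loess between arrays called 2 at 6 h, against 0.242% of probe sets. The medians were 0.06, 0.02, 0.12 and 0.15. At 6 h the smallest p belonged to Gnl3 (0.52 ± 0.14), Nolc1 (0.29 ± 0.08) and Nop56 (0.28 ± 0.08), with adjusted p of 0.0785 to 0.108. Gnl3 read 8.22, 8.33, 8.39 and 8.41 in air and 8.70, 8.76, 8.80 and 9.18 at 6 ppm, without overlap. At 6 h 1 rat at 6 ppm, animal 286, stood apart: the median deviation of its 42 genes was 0.22, against 0.0034 to 0.04 in the other 3, and its mean of 10 basal and squamous markers was 11.38, against 9.10 to 9.52. In that comparison 2 of these markers rose, Sprr1b by 2.51 ± 0.56 and Tgm3 by 1.77 ± 0.42, both genes of squamous cells. At 24 h the smallest p belonged to Imp4 (-0.13 ± 0.07), Rrp12 (0.29 ± 0.16) and Nob1 (-0.10 ± 0.06), and Gnl3 read 8.51, 8.65, 8.66 and 8.71 in air and 8.49, 8.51, 8.54 and 8.57 at 6 ppm, overlapping. At 5 d Gnl3 (0.42 ± 0.14), Mybbp1a (0.21 ± 0.08) and Nop2 (0.20 ± 0.09) led, and at 8 d Nop16 (0.33 ± 0.09), Ddx21 (0.40 ± 0.13) and Gtpbp4 (0.31 ± 0.11). The values at 5 d carry the limit given above, that dose and form of array name cannot be told apart. An F-test of whether the 6 ppm effect differed between times called none of the 42 genes in limma (0.0129% of probe sets), and gave Nolc1, Imp4 and Gnl3 at an unadjusted p under 0.05, 3 in all (7.14%, against 6.1% of all probe sets).

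**Figure D4:**
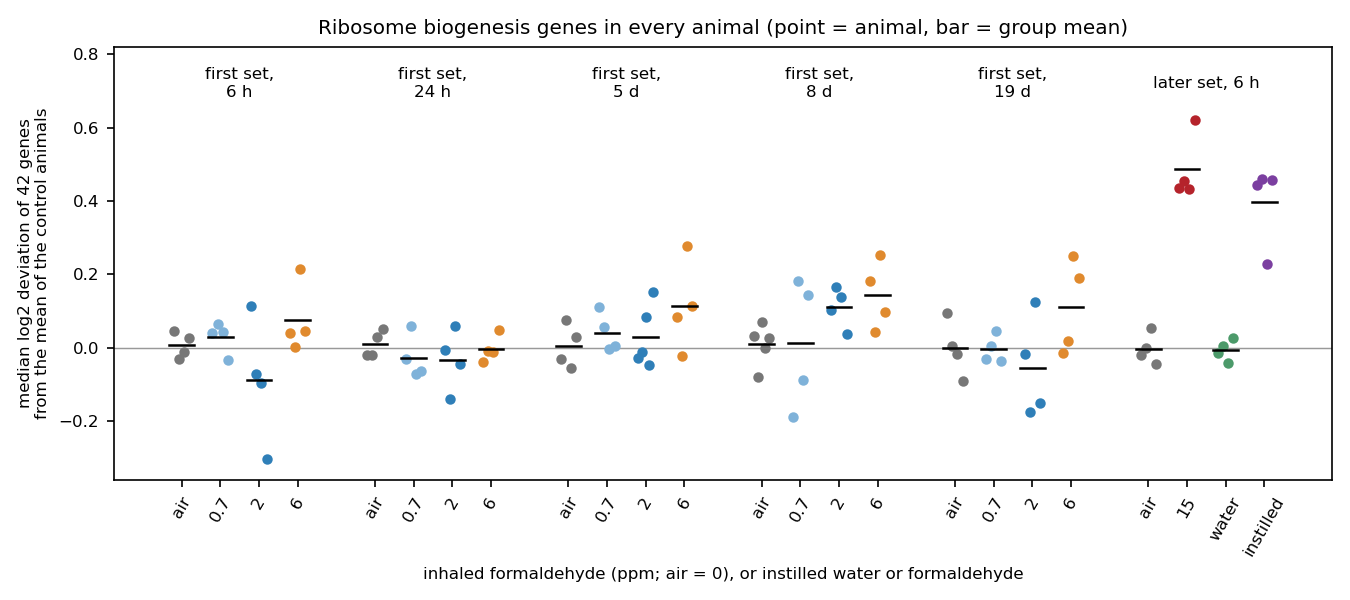
Median over the 42 genes of each rat's log2 deviation from the mean of its own control group (points, with group means as bars), for the 20 groups of the first array set and the 4 of the later one. Rats at 15 ppm lie between 0.43 and 0.62 and instilled rats between 0.23 and 0.46, above every other rat except that 1 rat at 6 ppm and 5 d (0.28) and 2 others at 6 ppm (0.25) pass the lowest instilled rat.

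The step from 6 to 15 ppm at 6 h was tested as a difference of effects, each against the air rats of its own array set. It was positive in all 42 genes (median 0.41 beside 0.0014 over all genes), and 12 passed upward and none downward, against 1.02% and 0.171% of probe sets. Nop56 differed by 0.86 ± 0.11 (adjusted p = 2.65e-07), Gnl3 by 1.00 ± 0.20, Nolc1 by 0.48 ± 0.11, Brix1 by 0.58 ± 0.14, Rrp9 by 0.48 ± 0.12 and Nop58 by 0.59 ± 0.14. The doses lie in different array sets, so dose and array set cannot be told apart here beyond the correction by each set's own air rats. The count fell to 2 without animal 342, the highest rat at 15 ppm, and to 7 without animal 284 at 6 ppm. It was 6 with the RNA integrity number in the model (85 arrays, 0.631% of probe sets), 7 with only these groups in the fit (1.65%), and 22 with array weights (3.54%).

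No gene passed at the lower doses. At 2 ppm limma called none of the 42 at any of the 5 times, against 0.0773% of probe sets called at 1 or more of them, and none in their average, against 0.361%. At an unadjusted p under 0.05 it gave 3, 1, 0, 8 and 2 genes at 6 h, 24 h, 5 d, 8 d and 19 d (7.14%, 2.38%, 0%, 19% and 4.76%), against 5.61%, 5.64%, 8.92%, 4.24% and 8.64% of all probe sets. The 8 at 8 d were higher than in air and the others lower. The medians at 2 ppm were -0.10, -0.04, 0.04, 0.11 and -0.05. At 5 d the array names of the air rats differ in form from those of all rats at 2 ppm and of most at 0.7 ppm. Dose and form of name cannot be fully told apart there. At 8 d Nop2 (0.21 ± 0.08), Dkc1 (0.23 ± 0.10) and Polr1b (0.27 ± 0.11) had the smallest p, each with an adjusted p of 0.996. At 0.7 ppm none was called at any time, against 0.00644% of probe sets, and none in the average, against 0%, with unadjusted p under 0.05 in 0, 1, 0, 1 and 0 genes, against 1.32%, 6.09%, 2.45%, 3.29% and 2.64% of all probe sets. The treatment field of the 4 rats of this group at 8 d reads 0.07 ppm while their titles carry the dose label of the other 0.7 ppm groups, and they were taken as 0.7 ppm, in the average too. The medians there lay between -0.03 and 0.04. In the averages over the 5 times limma gave 5 genes at 2 ppm (11.9%, against 10.7% of all probe sets) and 1 at 0.7 ppm (2.38%, against 2.84%) at an unadjusted p under 0.05. Wdr43 had the smallest p in the 0.7 ppm average (0.10 ± 0.05) and Nhp2 in that of 2 ppm (-0.12 ± 0.04).

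**Figure D5:**
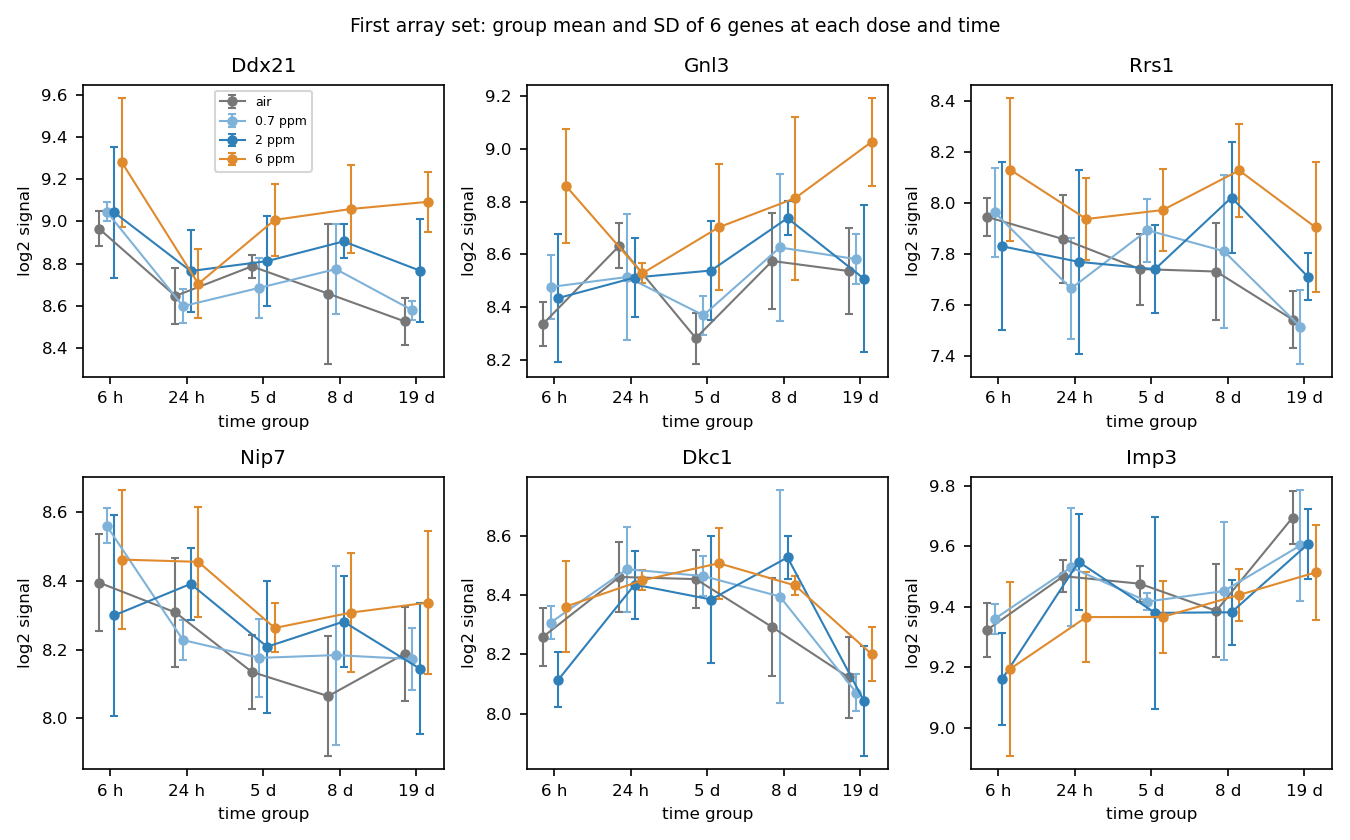
Group mean and SD of the log2 signal of Ddx21, Gnl3, Rrs1, Nip7, Dkc1 and Imp3 at the 5 times of the first array set, with 1 line per dose. At 6 ppm the mean of Ddx21 lies above air at every time, with SD bars clear of each other only at 19 d, and Dkc1 is at its lowest mean at 19 d in each of the 4 doses.

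Some of the genes differed between times of collection in the pooled rats at air, 0.7 and 2 ppm, where each later time was set against the same 6 h rats. On the labels the array names of these 6 h rats take a form that no array of a later time has. What the form stands for is not given. Time and form of name therefore cannot be told apart in these comparisons, nor among air rats alone. At 24 h 6 genes were higher (14.3%) and 1 lower (2.38%) than at 6 h, against 9.50% and 6.97% of probe sets. At 5 d 1 was higher (2.38%) and 3 were lower (7.14%), against 7.00% and 5.47%. At 8 d 9 were higher (21.4%) and 2 lower (4.76%), against 7.95% and 6.51%, and at 19 d 2 were higher (4.76%) and 5 lower (11.9%), against 7.69% and 6.07%. The direction thus varied with the gene and the time. Ddx21 was lower at each later time, with differences of -0.35 at 24 h, -0.26 at 5 d, -0.24 at 8 d and -0.39 at 19 d. Nip7 was lower from 5 d on, at -0.25, -0.24 and -0.25. Dkc1 was higher by 0.23 at 24 h, 0.21 at 5 d and 0.18 at 8 d, and Imp3 by 0.25 at 24 h and 0.35 at 19 d. Other called genes were Wdr74 (0.21), Nolc1 (0.19) and Grwd1 (0.17) at 24 h, Ltv1 (-0.17) at 5 d, Nop56 (0.21), Lyar (0.25) and Nolc1 (0.15) at 8 d, and Rrs1 (-0.32), Nop2 (-0.15) and Wdr12 (0.18) at 19 d. Among air rats alone, an F-test over the 5 times called 1 gene, Dkc1 (adjusted p = 0.0480), against 11.4% of probe sets. Dkc1 read 8.34, 8.42, 8.48 and 8.61 at 24 h and 7.95, 8.10, 8.16 and 8.28 at 19 d in air rats.

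Across the 24 group means many of the genes ran in parallel. For 27 of the 42 genes the Pearson correlation with the median of the other 41 was above 0.8, with a median of 0.89, from 0.96 for Gar1 and Gnl3 to 0.30 for Imp3, 0.36 for Dkc1, 0.40 for Ltv1 and 0.46 for Polr1a. The highest group mean was in instilled rats for 32 genes and at 15 ppm for 8; it was with water for Ltv1 and at 2 ppm and 8 d for Dkc1. Outside the list, the genes most like the median of the 42 were Pprc1 (r = 0.97), a coactivator of mitochondrial genes, Pvr (0.97), the poliovirus receptor, Pcna (0.97), Ctps1 (0.96), which makes CTP, and Ftsj3 (0.96), a methyltransferase of ribosomal RNA. These correlations are a description, and the groups that stand farthest out are those at 15 ppm and with instilled formaldehyde. Pvr changed by 2.21 ± 0.22 at 15 ppm and 2.45 ± 0.22 after instillation, and Pprc1 by 1.12 ± 0.17 and 0.86 ± 0.17.

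Other genes of the pathway, from lists of further factors, moved in part, with the 4.32% of probe sets that rose and the 4.17% that fell at 15 ppm as the background. Of 13 further RNA polymerase I genes 7 rose at 15 ppm, led by Taf1d (1.09 ± 0.12), a subunit of its promoter selectivity factor, and Polr1e (0.74 ± 0.10). Of 45 further small subunit factors 21 rose, among them Utp3 (0.81 ± 0.09) and Utp4 (0.62 ± 0.08), and of 45 further large subunit factors 20 rose, among them Nifk (0.62 ± 0.09) and Pak1ip1 (0.75 ± 0.12). The medians of these 3 lists were 0.31, 0.28 and 0.27. No gene of these 3 lists fell at 15 ppm. The 7 further snoRNP factors had a median of -0.0030 with 1 rise (Nop10, 0.38 ± 0.06), and the 11 genes of the RNA exosome, which trims the precursor, a median of 0.02 with 1 rise (Exosc2, 0.32 ± 0.09).

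Of 42 genes of the ribosomal proteins themselves 4 rose at 15 ppm (9.52%, against 4.32% of probe sets), and 39 were positive, with a median of 0.08. Of the 77 ribosomal protein genes listed, only these 42 had a probe set of their own. Rps13 (0.62 ± 0.13) and Rpl35a (0.21 ± 0.06) had the smallest p. The Rps13 probe set was dim, with means of 4.69 in air and 5.31 at 15 ppm, below every array median. Rpl35a read 12.80 and 13.01. Translation initiation factors rose in 8 of 18 cases (median 0.25), led by Eif3j (0.68 ± 0.10) and Eif2s2 (0.36 ± 0.07), and nucleotide synthesis genes in 2 of 12, Ctps1 (1.01 ± 0.13) and Umps (0.38 ± 0.08).

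After instillation, where 9.83% of probe sets rose and 12.4% fell, the further RNA polymerase I genes rose in 6 cases and fell in 1, with Taf1d (0.78 ± 0.12) and Polr1c (0.56 ± 0.09) first. Small subunit factors rose in 21 and fell in 1 (Utp3, 0.89 ± 0.09, and Utp23, 0.53 ± 0.09), and large subunit factors rose in 24 and fell in 1 (Nifk, 0.78 ± 0.09, and Nmd3, 0.67 ± 0.11). Ribosomal proteins rose in 17 of 42 cases (median 0.12), Rps13 by 0.81 ± 0.13 and Rpl28 by 0.75 ± 0.13. Both of these probe sets were dim, below every array median. Rps13 had means of 4.92 with water and 5.73 with formaldehyde, and Rpl28 of 4.25 and 5.01. Of the 7 snoRNP factors Nop10 rose by 0.21 and Shq1 fell by 0.58, and of the exosome genes 2 rose and 1 fell, Mphosph6 by 0.31 and Exosc2 by 0.30 upward. Initiation factors rose in 8 of 18 cases (Eif3j, 0.72 ± 0.10, and Eif3d, 0.39 ± 0.06) and nucleotide synthesis genes in 4 of 12 (Umps, 0.48 ± 0.08, and Ctps1, 0.58 ± 0.13). In the average of 6 ppm over 5 times the ribosomal proteins had a median of -0.01, with none up and 1 down.

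Myc, which encodes the growth-driving transcription factor, had a mean of 7.79 ± 0.17 (SD, n = 4) in air, 9.12 ± 0.17 at 15 ppm, 8.53 ± 0.21 with water and 9.62 ± 0.37 in instilled rats. It rose by 1.34 ± 0.27 at 15 ppm (adjusted p = 2.86e-04) and by 1.09 ± 0.27 after instillation (adjusted p = 0.0014), and was 0.74 ± 0.27 higher with water than with air without passing (adjusted p = 0.339). At 6 ppm its changes were -0.12, -0.08, -0.23, 0.23 and 0.33 at the 5 times, none of which passed. Of the 12 genes of the MYC and MAX network only Myc rose at 15 ppm and 3 fell, against 4.32% and 4.17% of probe sets. Mxd4, a repressor that competes with MYC for MAX, was at -0.59 ± 0.12. After instillation 3 of the 12 rose and 3 fell, against 9.83% and 12.4% of probe sets. Their changes ran from -0.68 to 1.65, and the largest rise was in a gene other than Myc. Mxi1 at -0.50 ± 0.09 and Mxd4 at -0.68 ± 0.12 were first by p. How far Myc bears on the listed genes was not tested.

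Many of these genes rose in the groups in which Myc rose, so their promoters were searched for the E-box CACGTG, the palindrome that MYC and MAX are known to bind, which reads the same on both strands. RefSeq promoter windows (GRCr8, 250 bases before to 50 after the start, 1 start per gene) were held for 38 of the 42 genes. The E-box was in 12 of 38 windows (31.6%), and in 1046 of the 11700 windows of genes on the array (8.94%). Of the 28 genes with a window that were called at 15 ppm 6 held it, and of the 10 that were not called 6 held it. The changes of those 10 ran from -0.07 (Noc3l) to 0.44 (Rrp12), so not all of them were without a change. Median changes at 15 ppm were 0.47 with and 0.54 without a match. A match is a run of letters and not a site shown to be bound. Of the matches, 6 lay wholly before the start of transcription and 7 lay across or after it. Stretches of 80 bases are given for 3 genes with a match called at 15 ppm and for 3 with a match not called. Another is given for Nop56, which rose and has none in its window. The matches shown all lie before the start, while Fbl, Nop2, Ebna1bp2, Noc3l, Rrp12 and Tsr1 have theirs only after it. Capitals mark the E-box.

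The stretch of Gnl3 lies at chr16:6219783-6219862, minus strand, that of Lyar at chr14:76802786-76802865, minus strand, and that of Mybbp1a at chr10:57555278-57555357, plus strand. Counted from the start of transcription, the E-box begins at -25 in Gnl3, at -90 in Lyar and at -156 in Mybbp1a, which has another at -1 outside the stretch shown.
Gnl3: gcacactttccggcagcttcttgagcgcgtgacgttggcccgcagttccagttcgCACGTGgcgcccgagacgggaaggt
Lyar: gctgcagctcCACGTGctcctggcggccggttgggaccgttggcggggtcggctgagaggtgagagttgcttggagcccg
Mybbp1a: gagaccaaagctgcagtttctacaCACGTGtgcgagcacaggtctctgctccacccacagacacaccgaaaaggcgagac

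The stretch of Pes1 lies at chr14:83074266-83074345, plus strand, that of Ltv1 at chr1:9398558-9398637, minus strand, that of Dkc1 at chrX:157751451-157751530, plus strand, and that of Nop56 at chr3:137930099-137930178, plus strand. Pes1, Ltv1 and Dkc1 hold the same letters from -50, -61 and -184 and changed by 0.27, -0.0038 and 0.12 at 15 ppm, whereas the letters are not in the window of Nop56.
Pes1: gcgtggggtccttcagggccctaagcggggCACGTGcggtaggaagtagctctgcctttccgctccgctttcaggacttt
Ltv1: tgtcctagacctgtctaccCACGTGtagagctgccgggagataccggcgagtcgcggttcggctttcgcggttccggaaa
Dkc1: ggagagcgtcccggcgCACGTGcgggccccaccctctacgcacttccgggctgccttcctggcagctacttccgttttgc
Nop56: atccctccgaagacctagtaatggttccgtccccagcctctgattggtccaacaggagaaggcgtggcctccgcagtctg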

How the data were processed

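RNA from the nasal epithelial cells of 98 rats was hybridised to 98 arrays, and the table of log2 signal per probe set was used as the authors deposited it; the summarising and normalising of probes are steps not given in the sources used here. Probe sets were named from the platform's annotation, with symbols updated through RefSeq (GRCr8). Control probe sets were left out, which left 31042. The arrays came as 2 sets, and each group lies within 1 of them, so inhaled 15 ppm and both instilled groups were compared with control rats of the later set.

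A limma model (limma 3.58.1, R 4.3.3) with 1 mean per group was fitted to all 98 arrays with 74 residual degrees of freedom, and the Benjamini-Hochberg adjustment of p-values took in all probe sets of a comparison. On simulated data for 15 ppm the model called 63 of 100 probe sets changed by 0.5 (log2) and 90 of 100 changed by 1. It also called 12 unchanged probe sets. Only these few probe sets were changed there, with noise independent between probe sets, whereas 1340 rose and 1296 fell in the data. The adjusted threshold thus differs, and the simulated rates need not hold for the data. The members and gene lists were chosen with earlier results of these data known. Values of every rat are given for the genes with the smallest p among those called at 15 ppm and after instillation (8 for each) and for Fbl, Ncl, Polr1b, Pes1, Dkc1 and Ddx21; genes named beyond these were singled out by smallest p within a comparison, list or role, or after their values were seen. Alternatives were cyclic loess, median centring, array weights, a filter on mean signal, the mean of a gene's probe sets, a 1.5-fold minimum, the RNA integrity number as a covariate, fits of only the groups compared, other control rats, and leaving out each rat. Arrays have no read depth, and the number of rats limits the precision.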

Additional observations from a re-analysis of the deposited data

Results flagged for a closer look

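In 98 groups of values (18 genes in the groups the text turns on, and the median of the 42 genes) a rat was sought whose gap to its nearest neighbour took up more of the group's range than Dixon's limit allows, and 9 were found. Chance gives about 1 in 20 groups. Over the median of the 42 genes, 1 instilled rat (animal 372) stood low at 0.23 and 1 rat at 15 ppm (animal 342) stood high at 0.62. Among single genes, the rats that stood apart were at 8.82 for Gnl3 and 10.94 for Ncl with water, 8.76 for Nolc1 and 8.45 for Lyar at 15 ppm, 8.31 for Rrs1 in instilled rats, 6.65 for Polr1b in air rats of the later set, and 8.88 for Ddx21 at 6 ppm and 19 d.

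The effect at 6 h differed between 15 and 6 ppm, each against its own air rats, in 12 genes by limma's test of the difference: Gnl3 by 1.00, Nop56 by 0.86, Rrs1 by 0.81, Lyar by 0.62, Nop58 by 0.59, Brix1 by 0.58, Mrto4 by 0.57, Noc4l by 0.56, Noc2l by 0.52, Nop16 by 0.51, Nolc1 by 0.48 and Rrp9 by 0.48. The part of the array set in these differences was not tested.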

How the results depend on the processing

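With a minimum of 1.5-fold, 15 of the genes rose at 15 ppm, 9 rose after instillation, 5 differed between 15 and 6 ppm, and 0 were called in the 6 ppm average, at 6 ppm and 19 d, between the air rats of the array sets, and in each of the 4 time comparisons at low doses. With array weights 22 genes differed between 15 and 6 ppm, 5 between water and air, 6 between the air rats of the array sets, 3 at 6 ppm and 6 h, 4 at 6 ppm and 19 d, and 9, 17 and 12 at 5 d, 8 d and 19 d against 6 h at low doses. With cyclic loess 15 were called in the 6 ppm average, 2 at 6 ppm and 6 h, 4 at 6 ppm and 19 d, and 5 at 8 d at low doses. With the RNA integrity number as a covariate (85 arrays) 6 differed between 15 and 6 ppm, 0 between the air rats of the array sets, and 6 at 8 d at low doses. With only the compared groups fitted these counts were 7, 2 and 7, and 0 were called at 6 ppm and 19 d. That last count was 0 with the mean of a gene's probe sets and 2 with dim probe sets left out, and median centring gave 0 between the air rats of the array sets. Of the alternatives chosen after seeing the data, the 6 ppm average called 5 without 19 d, 31 genes rose at 15 ppm against the air rats of both array sets, and 38 rose with air in place of water as the control. For most of these counts the share of all probe sets called under the same setting is not given. Array weights raised that share as well, from 4.70% to 16.2% between the air rats of the array sets. The counts therefore show how the calls depend on the setting and are not read as particular to the listed genes. The causes of the shifts in these counts were not tested.

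Leaving out each rat in turn gave 27 to 33 rises at 15 ppm, 29 to 35 after instillation, 9 to 12 calls in the 6 ppm average, 2 to 13 between 15 and 6 ppm (2 without animal 342 and 7 without animal 284), 0 to 1 at 6 ppm and 6 h (1 without animal 283), and 0 to 1 at 6 ppm and 19 d (0 without any rat of the 2 groups but animal 308). Of 922 values of single called genes under the alternatives, 881 stayed called, 41 did not, and 0 reversed. These values cover only the 18 genes given with every rat, where they were already called, and include the fits without 1 rat. Most of these genes were picked for their smallest p in these data, which favours staying called. The count therefore does not speak for the other genes. No scaling moved the median of all genes by more than 0.1. No paired analysis was possible because every array comes from a different rat. The probe sets of Noc3l and Heatr1 have a mean below the median of all probe sets.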
